A study of Mus musculus with 3 samples.

Results

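A set of 9 interferon-induced genes was followed across pancreatic beta cells and pancreatic ductal cells of adult mice: Gbp2b, Gbp2, Gbp3, Ifit1, Ifit2, Ifit3, Oas1a, Irf7 and Isg15. They were chosen by symbol, and 7 of the 9 had a probe set that the platform annotation assigns to that gene alone, out of 19938 genes with such a probe set. Gbp2 and Isg15 had none. Their probe sets are shared with another gene and were described without being assigned to either.

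Expression was measured on 3 arrays, 1 for each group of sorted cells, and the age in every group was over 6 weeks. The beta cells came from 3 pooled MIP-GFP mice that were Fbw7 +/+ and untreated, so that the fluorescent protein marked cells using the insulin promoter. The Fbw7-deleted ductal cells came from 6 pooled Fbw7 F/F mice that carried both Ck19-CreERT and R26-LSL-YFP, which is a reporter that Cre switches on. The wild-type ductal cells came from 6 pooled Fbw7 +/+ mice with the same Cre and reporter. Tamoxifen was given to ductal mice of both genotypes on 5 days, and cells were collected 7 days after the final injection. The background was C57BL/6 in all 3 groups. The beta cell mice received no tamoxifen, carried another reporter and were pooled in another number, and the Cre is given for the ductal mice only. Cell type, reporter, Cre, tamoxifen and number of mice pooled therefore cannot be told apart in any comparison with them. Nor can Fbw7 genotype in the comparison of beta with deleted ductal cells. Fbw7, encoded by Fbxw7, is the part of a ubiquitin ligase that recognises its substrates, and Ck19-CreERT acts in cells that use the cytokeratin 19 promoter.

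Interferons are secreted proteins that put cells into an antiviral state. Type I interferons act through the receptor chains Ifnar1 and Ifnar2 and the kinases Jak1 and Tyk2 on a complex that includes Stat2 and Irf9 and binds the interferon-stimulated response element (ISRE) in target promoters. Interferon gamma acts through Ifngr1, Ifngr2, Jak1 and Jak2, and its target promoters often hold the gamma-activated sequence (GAS). Among the target genes, guanylate-binding proteins are large GTPases that attack intracellular pathogens, IFIT proteins bind foreign RNA and block its translation, and OAS enzymes make oligoadenylates that activate an RNase. Irf7 amplifies type I interferon production, and Isg15 is a ubiquitin-like protein attached to other proteins.

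The promoters are shown because they carry the element by which these genes are usually grouped. Promoter windows of 300 bases were found for all 9 genes in the RefSeq table (GRCm38.p6), from 250 bases before the annotated start. The core of the ISRE was searched as GAAANNGAAA on both strands, and 7 of the 9 genes had a match, against 1079 of 27025 genes (3.99%) over all promoters and 40 of 97 other interferon pathway genes. Irf7 and Ifit2 had no match in their windows. The stretches below run from 20 bases before the first match to 20 bases after the last, 5′ to 3′ on the gene's strand, with the matches in capitals. Capitals that read TTTC are matches on the opposite strand, and longer runs are overlapping matches.
Gbp2b, chr3:142594690-142594739, plus strand: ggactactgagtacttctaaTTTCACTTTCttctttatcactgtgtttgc
Gbp2, chr3:142620584-142620633, plus strand: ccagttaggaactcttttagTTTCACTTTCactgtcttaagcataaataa
Gbp3, chr3:142559979-142560034, plus strand: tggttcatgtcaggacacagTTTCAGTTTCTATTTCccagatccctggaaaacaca
Ifit1, chr19:34640765-34640833, plus strand: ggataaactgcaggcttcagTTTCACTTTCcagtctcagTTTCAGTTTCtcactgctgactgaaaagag
Ifit3, chr19:34583353-34583436, plus strand: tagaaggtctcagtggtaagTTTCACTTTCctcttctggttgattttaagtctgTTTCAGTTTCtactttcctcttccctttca
Oas1a, chr5:120907510-120907565, minus strand: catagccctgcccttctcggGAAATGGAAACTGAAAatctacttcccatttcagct
Isg15, chr4:156200855-156200916, minus strand: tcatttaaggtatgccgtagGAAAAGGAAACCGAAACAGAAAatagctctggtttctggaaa

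The same 10 letters, TTTCACTTTC, stood in Gbp2b, Gbp2, Ifit1 and Ifit3. Gbp2b and Gbp2 each had 1 match, with its first base 137 and 59 bases before the start. The GAS core, searched as TTCNNNGAA, which reads the same on both strands, was in the windows of 2 of the 9 genes, Ifit2 and Oas1a, of 9.55% of all genes and of 29 of 97 other interferon pathway genes. A match is a description of the letters in this window, not of binding.

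**Figure D1:**
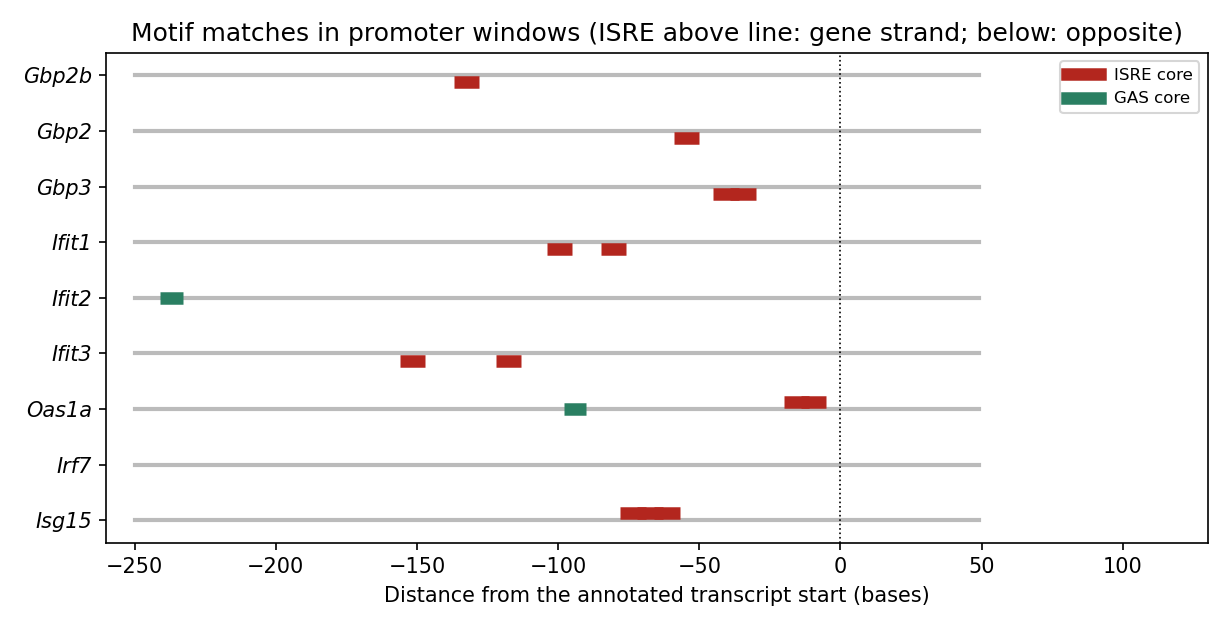
Position of ISRE and GAS core matches in the first promoter window of each of the 9 genes, with distance from the annotated transcript start in bases on the horizontal axis and 1 grey line per gene. Matches on the gene's strand lie above the line and those on the opposite strand below it, GAS matches lie on the line, and 7 genes have an ISRE match.

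The deposited values are log2 intensities, and a level is the value of the gene's probe set on 1 array. A gene entered a comparison when the higher of its levels lay above that array's floor, the median over probe sets of a single gene, which was 5.30 in beta cells, 5.24 in deleted ductal cells and 5.23 in wild-type ductal cells. About 50% of probe sets of a single gene pass this floor by definition, so passing alone does not show that a cell type was present. Since each group had 1 array, spread could not be estimated and nothing was tested. Differences of at least 2-fold were counted instead, and none has a replicate check. The targeted gene Fbxw7 had 2 probe sets, of which 1 (10492826) read 4.95 in all 3 arrays and the other (10499093) 7.00 in beta cells, 5.71 in deleted and 6.32 in wild-type ductal cells. Where they lie relative to the floxed part is not known here, so they do not check the deletion. In 47.2% of probe sets the value was identical in both ductal arrays. The sorted cells were not pure by their markers. All 8 measured mesothelial markers were above the floor in both ductal arrays. They read 7.98 to 10.7 in deleted and 7.91 to 10.6 in wild-type ductal cells. All 10 acinar markers were above the floor in all 3 arrays. They read 8.11 to 12.9 in beta cells, 6.36 to 13.0 in deleted and 6.09 to 12.2 in wild-type ductal cells. Most markers of the sorted cell types passed the floor and some did not. The beta cell array had 8 of 11 genes of the beta cell list over its floor, without Pdx1, G6pc2 and Pcsk1. Of 10 duct genes, 9 passed the floor in deleted and 8 in wild-type ductal cells. Cftr was below the floor in all 3 arrays, and Prom1 in the beta cell and wild-type ductal arrays. The floor was also passed by 8 of 10 duct genes in beta cells and by 4 of 11 beta cell genes in each ductal array. Of 8 duct genes compared in beta and wild-type ductal cells, 5 were lower in beta cells, Cdh1 and Onecut1 higher and Epcam identical. Of 8 beta cell genes compared with deleted ductal cells, 6 were higher in beta cells, Slc2a2 was lower (6.05 against 6.90) and Mafa was identical. Median levels were 10.1 for mesothelial and 8.48 for duct markers in deleted ductal cells, and 10.4 and 6.91 in wild-type ductal cells. For bulk samples like these, fewer cells of a type and less RNA per cell cannot be told apart.

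In deleted against wild-type ductal cells, the interferon-induced genes went in different directions. Gbp2b and Oas1a were lower, Ifit3 was 2.004-fold higher, Ifit1 was at 0.63, Gbp3 at -0.13 and Irf7 at 0 on the log2 scale. Of the 6 genes above the floor, 1 was at least 2-fold higher, where 1.43% of 10035 genes were, and 2 were at least 2-fold lower, where 1.81% were. Over all genes, 44.2% of those at least 2-fold apart were higher as deposited and 60.1% after quantile normalization. The median difference was -0.06 over these 6 genes and 0 over all 10035.

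Among the guanylate-binding proteins, Gbp2b read 4.68 in beta cells, 4.69 in deleted ductal cells and 7.48 in wild-type ductal cells. Its level lay above the floor in wild-type ductal cells only, and the other two arrays read nearly alike. The difference was -2.79 between deleted and wild-type ductal cells, or at least 4.74-fold lower in deleted cells when the level below the floor is raised to it. Of the 10035 genes compared, 4 had a more negative difference.

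Gbp3 read 5.59 in beta cells, 7.38 in deleted ductal cells and 7.51 in wild-type ductal cells. The ductal arrays were close together, 0.13 apart, and the beta cell array was low. The probe set that the annotation assigns to Gbp2 and Gbp2b together (10496592) read 5.49 in beta cells, 10.26 in deleted ductal cells and 9.69 in wild-type ductal cells. Its difference between deleted and wild-type ductal cells was 0.56, the opposite sign to the Gbp2b probe set (10496555). These genes are close relatives, and which transcript gives the shared signal was not tested.

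Other guanylate-binding protein genes with a probe set of their own did not share the low Gbp2b value. Of 6 measured, 5 were above the floor in the ductal comparison, 0 were at least 2-fold apart and 3 were identical in both ductal arrays. Gbp5 had the highest difference, 0.02, and Gbp9 the lowest, -0.04. A probe set shared by 6 genes of the family, Gbp4, Gbp6, Gbp8, Gbp9, Gbp10 and Gbp11 (10531994), read 8.62 in deleted and 8.34 in wild-type ductal cells.

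The neighbours of Gbp2b on chromosome 3 were read from the order of protein-coding genes in the RefSeq table (GRCm38.p6), a check added after the values were seen. On one side lie Gbp3, Gbp7 and Gbp5, at -0.13, 0 and 0.02 between the ductal arrays, then Pdlim5 at -0.44. On the other lie Gbp2, then Kyat3, below the floor in all 3 arrays, then Gtf2b, a general transcription factor, and Pkn2 at -0.26. Gtf2b read 4.15 in beta cells, 5.84 in deleted ductal cells and 7.55 in wild-type ductal cells, a ductal difference of -1.71. Of these neighbours Gbp2 has no probe set of its own, so the gene next to Gbp2b on that side has no value of its own.

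Among the IFIT genes, Ifit3 read 5.92 in beta cells, 8.25 in deleted ductal cells and 7.25 in wild-type ductal cells. It was highest in deleted ductal cells, and its difference from wild-type ductal cells, 1.003, lay at the edge of the 2-fold rule. With each array centred on its median it was 0.97 and no longer called. Ifit1 read 4.70 in beta cells, 7.56 in deleted ductal cells and 6.93 in wild-type ductal cells. Its arrays had the same order as those of Ifit3, with a ductal difference of 0.63 or 1.54-fold. Ifit2 read 4.65 in beta cells, 4.96 in deleted ductal cells and 4.99 in wild-type ductal cells. All of these lie below the floor, so Ifit2 entered no comparison, and the probe set of Ifit3b, a close relative of Ifit3, also lay below it at 3.35 in beta cells and 4.49 in both ductal arrays.

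Oas1a, an oligoadenylate synthetase, read 5.53 in beta cells, 4.12 in deleted ductal cells and 6.06 in wild-type ductal cells on its own probe set (10533256). The deleted ductal array was the lowest and lay below the floor. The difference from wild-type ductal cells was -1.94 as measured and -0.82 with the level raised to the floor, so the bound is at least 1.76-fold lower and the 2-fold call is lost. The probe set shared by Oas1a and Oas1g (10533246) read 6.13 in all 3 arrays, with no difference. Other OAS genes were also close: 3 of 10 measured were above the floor in the ductal comparison, from Oasl1 at -0.03 to Oasl2 at 0.08.

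Irf7, the transcription factor, read 5.30 in beta cells and 7.36 in both ductal arrays. Its value was identical in the ductal arrays to the last deposited digit, as for 48.2% of the genes compared. The beta cell value lay just below the floor. The probe set shared by Isg15 and Gm9706 (10451287) read 6.05 in beta cells and 6.86 in both ductal arrays, again with identical ductal values.

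**Figure D2:**
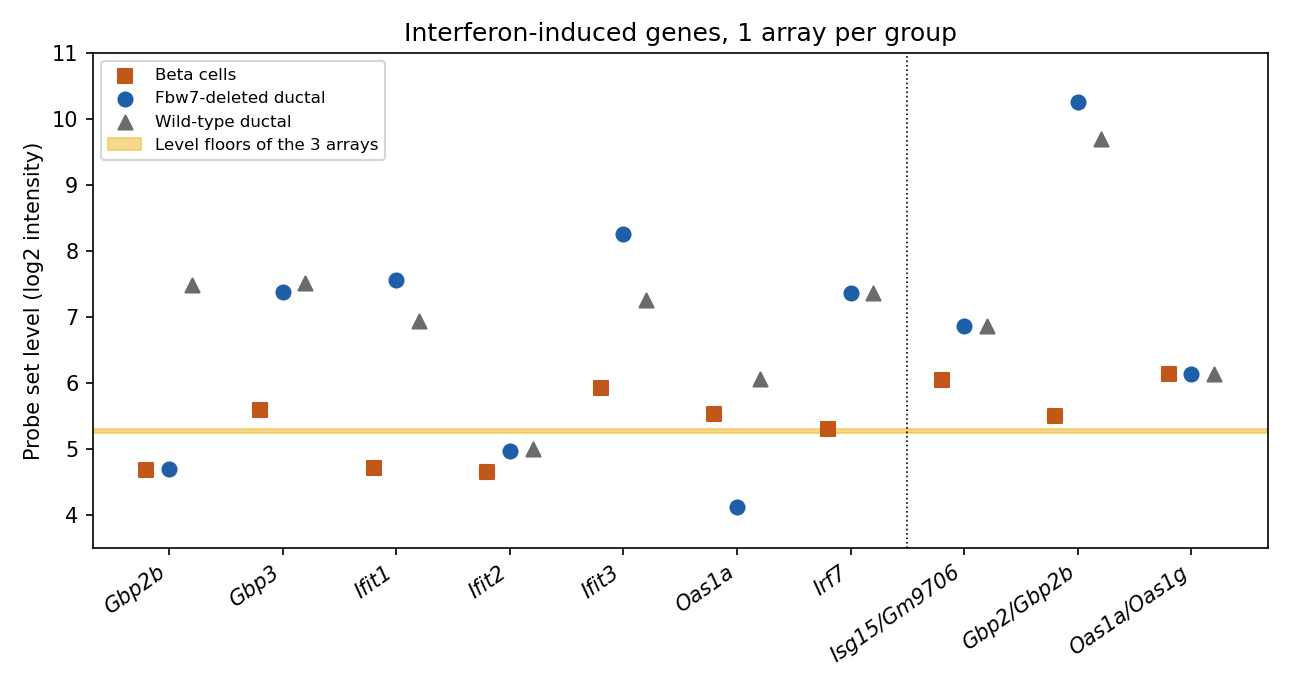
Level of each probe set (log2 intensity) on the beta cell, Fbw7-deleted ductal and wild-type ductal arrays, 1 point per array, with the floors of the 3 arrays as a band; probe sets right of the dotted line are shared by several genes. Gbp2b is above the floor in wild-type ductal cells only (7.48), Ifit3 is highest in deleted ductal cells (8.25), and the Oas1a/Oas1g probe set reads 6.13 throughout.

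The rest of the interferon pathway was described from 13 lists of 130 other genes, of which 105 had a probe set of their own. In deleted against wild-type ductal cells 71 were above the floor. Of these, 1 was at least 2-fold higher, 1 at least 2-fold lower and 29 were identical, with a median difference of 0, as over all genes. These shares are near those of all genes compared.

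Of the 5 interferon genes above the floor, 3 were identical in the ductal arrays, and Ifna9 had the highest difference at 0.13. Of 8 receptor and kinase genes above the floor, 6 were lower by any amount, Ifngr1 by 0.04 only, and 2 were identical. Over all 10035 genes, 3551 were lower by any amount and 4841 identical. Ifnar2, a type I receptor chain, read 5.44 in beta cells, 8.50 in deleted ductal cells and 9.54 in wild-type ductal cells. It was the 1 gene of the lists at least 2-fold lower in deleted ductal cells, at -1.04, and 0 were after quantile normalization or with a loess trend on the mean level removed. Ifnar1, the other chain, was identical in both ductal arrays at 7.68. Jak2 was at -0.95 and Ifngr2 at -0.75. Ifnar1, Ifngr1, Jak2 and Ifngr2 were named after their values were seen.

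Stat2 and Irf9, which act on the ISRE, were at most 0.01 apart in the ductal arrays. Stat2 was at 0.01 and Irf9 read 6.17 in all 3 arrays. Of 7 transcription factor genes above the floor, 5 were identical in both ductal arrays, and Irf3 was lowest at -0.05. Sensors and adaptors ranged from Sting1, which relays signals of cytosolic DNA, at -0.37, to Ifih1, a sensor of double-stranded RNA, at 0.11.

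Among 13 other antiviral effectors above the floor, Ifitm1, a membrane protein that hinders virus entry, was the 1 gene at least 2-fold higher. It read 6.18 in beta cells, 9.32 in deleted ductal cells and 8.13 in wild-type ductal cells, with a ductal difference of 1.18. This is the array order of Ifit3 and Ifit1. Its relatives Ifitm2 and Ifitm3, named after their values were seen, were at 0.14 and 0.19, and Samhd1, a nucleotide hydrolase, was lowest at -0.70.

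The remaining lists stayed within 2-fold. Immunity-related GTPases had 2 genes above the floor, Irgm1 at 0.40 and Iigp1 at 0.28. In the ISG15 conjugation list Ube2l6, the conjugating enzyme, was at 0.16 and Uba7, the activating enzyme, at 0. Among antigen processing genes B2m was at 0.22 and Psme2 at -0.36, with 4 of 10 identical. The p200 gene Ifi205 was at -0.42 and Ifi207 at 0, the chemokine Cxcl10 at 0.38 and Ccl5 at -0.29, and the negative regulator Socs3 at -0.32 with Socs1, Trex1 and Adar at 0.

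**Figure D3:**
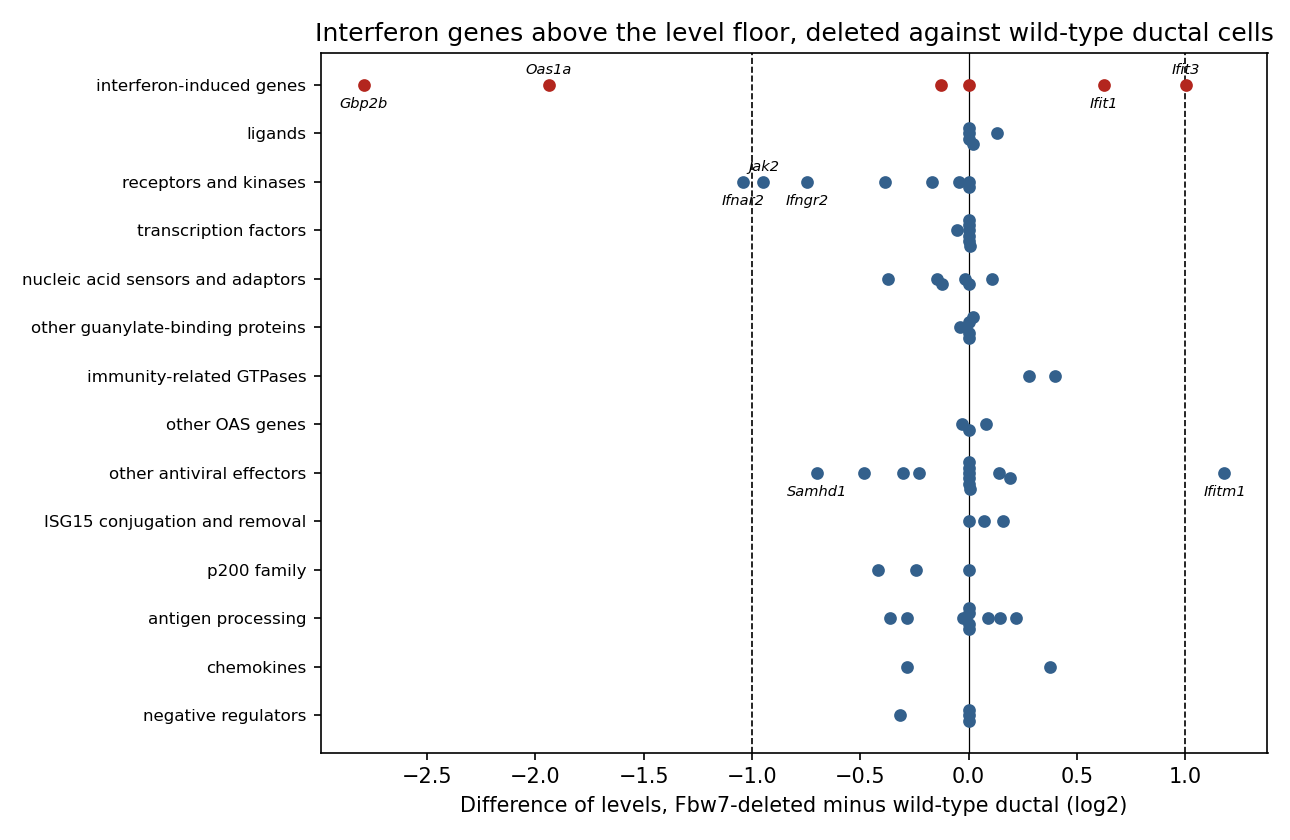
Difference of log2 level, Fbw7-deleted minus wild-type ductal cells, for each gene above the floor, by list; dashed lines mark 2-fold and identical values stack at 0. Gbp2b (-2.79) and Oas1a (-1.94) lie left of the other genes, and Ifitm1 (1.18) and Ifit3 (1.003) lie furthest right.

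Markers of other cell types moved between the ductal arrays beside these genes. Acinar markers were at least 2-fold higher in deleted cells for 8 of 10 and lower for 1, Ctrc at -1.21, with summed linear intensities of 28098 in deleted and 11788 in wild-type ductal cells. Duct markers were higher for 9 of 9 above the floor, and at least 2-fold higher for 5. Their sums were 4921 in deleted and 2482 in wild-type ductal cells. Mesenchymal markers were lower for 9 of 10, and at least 2-fold lower for 4. Their sums were 6460 in deleted and 10092 in wild-type ductal cells. Over all 10035 genes, 1643 were higher and 3551 lower by any amount, and 1.43% and 1.81% by at least 2-fold. Mesothelial sums were 9275 in deleted and 9485 in wild-type ductal cells. Of 22 leukocyte markers, 3 were above the floor in each ductal array, Cd68, Csf1r and Cd14. The pan-leukocyte gene Ptprc read 3.995 in deleted and 3.72 in wild-type ductal cells and the myeloid gene Lyz2 3.08 in deleted and 3.02 in wild-type ductal cells, all below the floor. The part of acinar, duct and mesenchymal cells in the values of Gbp2b, Oas1a and Ifit3 was not tested.

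In beta cells against wild-type ductal cells, all 6 interferon-induced genes above the floor were lower, from Gbp2b at -2.81 to Oas1a at -0.53. Over all 11139 genes, 5990 were lower and 3046 higher by any amount. Of the 6 genes, 5 were at least 2-fold lower, where 25.8% of 11139 genes were, and 0 were at least 2-fold higher, where 6.37% were. The median difference was -1.99 over the 6 genes and -0.11 over all genes compared. Gbp2b was at least 4.53-fold lower in beta cells, Irf7 at least 4.16-fold and Ifit1 at least 3.09-fold, each against the floor. Gbp3 was 3.77-fold and Ifit3 2.51-fold lower, and the probe set shared by Gbp2 and Gbp2b was 18.5-fold lower. Ifit3 lost its call after quantile normalization (-0.89) and with the loess trend removed (-0.76). All genes moved with the scaling in this comparison: the median over all genes shifted by 0.20 with quantile normalization, by -0.20 with each array centred and by 0.13 with a loess trend removed. Genes at least 2-fold higher were 19.8% of those at least 2-fold apart as deposited, 37.2% after quantile normalization and 33.6% with the loess trend removed.

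Other pathway genes were lower in beta cells too, with 39 of 73 above the floor at least 2-fold lower and 1 at least 2-fold higher, beside 25.8% and 6.37% of all genes. Their median was -1.10. The counts were 30 lower and 6 higher after quantile normalization, where 2009 and 1189 of all 11224 genes were. With the loess trend removed they were 24 lower and 7 higher, where 1784 and 902 of all 11139 genes were. Receptors and kinases ran from Ifnar2, 17.2-fold lower, to Tyk2, which was identical at 5.34. Antiviral effectors ran from Bst2, which tethers budding virus and was 18.1-fold lower in beta cells at 5.99 against 10.17, to Isg20, identical at 6.62. Sting1 was at least 10.5-fold lower and Mavs, the adaptor of RNA sensors, was at -0.67. Among other family members Gbp5 was at -2.41 and Gbp9 at 0.53, Oasl2 at -2.85 and Oasl1 at 0.

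Of 6 ligand genes above the floor, Ifna9 was the 1 at least 2-fold higher in beta cells, where 6.37% of all genes were. It read 6.42 in beta cells and 5.31 in wild-type ductal cells, 2.15-fold higher, and was no longer called with each array centred. The other 5 lay between -0.06 and 0.97. The upper end was Ifna16, below the floor in wild-type ductal cells and at 0.09 with that level raised to it. Interferon beta, Ifnb1, read 3.80 in beta cells and 3.60 in both ductal arrays, and interferon gamma, Ifng, 4.62 in beta cells and 4.32 in both ductal arrays, all below the floor; both were named after their values were seen. Ifnl2 was the lowest ligand at -0.06.

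The other lists had the following ends. Irf1, at -1.42, was the lowest transcription factor and Irf8, at 0.27, the highest, with Stat2 at -0.46. Iigp1 was at -1.82 and Irgm1, below the floor in beta cells, at -1.71, or -1.46 raised to the floor. Ube2l6, below the floor in beta cells, was at -2.57, or -2.33 raised to the floor. Usp18, which removes Isg15 from proteins, was below the floor in wild-type ductal cells. It was at 0.36, or 0.10 raised to the floor. Ifi205 was at -2.43 and Ifi207 at 0.07, the peptide loading gene Tapbp at -2.80 and Nlrc5, an activator of class I genes, at 0.31. Cxcl10 was at -2.39 and Ccl5 at 0.32, and Socs3 at -1.20 and Socs1 at 0.56.

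**Figure D4:**
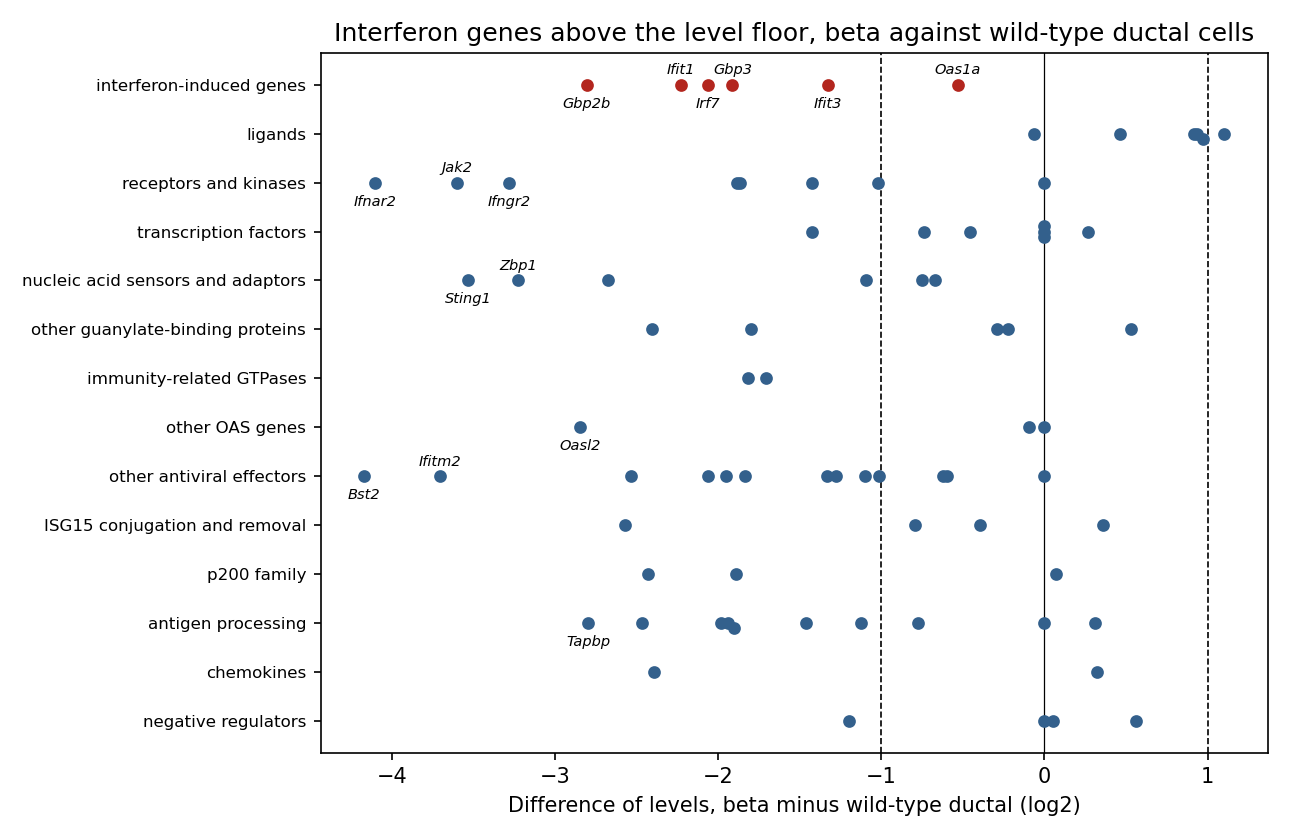
Difference of log2 level, beta minus wild-type ductal cells, for each gene above the floor, by list; dashed lines mark 2-fold. All 6 interferon-induced genes lie left of 0, from Gbp2b (-2.81) to Oas1a (-0.53), and Ifna9 is the 1 ligand right of the upper 2-fold line.

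Cell type markers differed beside these values as well. Leukocyte markers above the floor were 11 of 22 in beta cells and 3 of 22 in wild-type ductal cells. About 50% of probe sets of a single gene pass by definition. Of the 11, 6 were at least 2-fold higher in beta cells and 1 at least 2-fold lower, Cd14 at -3.97. Leukocyte sums were 1212 in beta cells and 1313 in wild-type ductal cells. Cd14, the highest of the list in wild-type ductal cells, read 9.76 there and 5.79 in beta cells. It makes up most of the wild-type ductal sum, so near-equal sums do not mean that the list was alike. Endothelial markers above the floor were 8 of 10 in beta cells and 4 of 10 in wild-type ductal cells. Endothelial sums were 721 in beta cells and 385 in wild-type ductal cells. Mesothelial sums were 284 in beta cells and 9485 in wild-type ductal cells, with 8 of 8 markers at least 2-fold lower in beta cells, and mesenchymal sums were 1745 in beta cells and 10092 in wild-type ductal cells. Acinar markers were at least 2-fold higher in beta cells for 8 of 10, with sums of 37586 in beta cells and 11788 in wild-type ductal cells. Duct markers were at least 2-fold lower for 4 of 8 above the floor, with sums of 985 in beta cells and 2482 in wild-type ductal cells. The part of these cells in the interferon-induced genes was not tested.

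In beta cells against deleted ductal cells, 5 interferon-induced genes were above the floor, and Gbp2b and Ifit2 were not. Of the 5, 4 were at least 2-fold lower, where 23.0% of 11095 genes were, and 1 was at least 2-fold higher, where 5.13% were. Of all genes at least 2-fold apart, 18.2% were higher as deposited, 35.7% after quantile normalization and 29.6% with the loess trend removed. Ifit1 was at least 4.77-fold lower in beta cells, Ifit3 5.03-fold, Irf7 at least 4.16-fold and Gbp3 3.44-fold. Oas1a was the 1 gene higher in beta cells, at 1.41 as measured and 0.29 with the level of the deleted ductal array raised to the floor, or 0.33 with the loess trend removed. Beside these values, mesothelial markers were at least 2-fold lower in beta cells for 8 of 8, duct markers for 8 of 9 and mesenchymal markers for 8 of 10. Acinar markers were at least 2-fold higher for 4 of 10. Leukocyte markers above the floor were 11 of 22 in beta cells and 3 of 22 in deleted ductal cells. Of the 11, 6 were at least 2-fold higher in beta cells and 1 at least 2-fold lower, Cd14 at -3.82. Leukocyte sums were 1212 in beta cells and 1230 in deleted ductal cells, where Cd14 at 9.60 makes up most of the sum. The part of these cell types in the result was not tested. The 3 comparisons share arrays, so their values are given side by side and were not related to each other.

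Genes with patterns most like Gbp2b, Oas1a and Ifit3 were sought over 10674 genes by the distance between the log2 differences from wild-type ductal cells. For Gbp2b, the nearest were Car4, a carbonic anhydrase, at a distance of 0.14, Sema3a, a guidance factor, at 0.31 and Bst1, an ectoenzyme, at 0.47. Car4 read 6.70 in beta cells, 6.57 in deleted ductal cells and 9.51 in wild-type ductal cells. For Oas1a the nearest were Snord57, a small nucleolar RNA, at 0.30, Tmem243 at 0.51 and Trim12a at 0.54. For Ifit3 they were Ccn1, a matrix protein, at 0.02, the RNA polymerase subunit gene Polr2i at 0.14 and Rmrp, a noncoding RNA, at 0.14. With 3 arrays, likeness of this kind describes these arrays only.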

How the data were processed

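The deposited values are log2 intensities per probe set, made by the authors with RMA per the submitters' processing notes; its version and the set of arrays normalized jointly are not stated in the sources used here. Per the labels' protocols, RNA of 30000 sorted cells was extracted for each array and 18 ng amplified with a NuGEN whole-transcript kit. Of 35556 probe sets, the platform annotation listed 1 gene for 21789, several for 1621 and none for 12146; 21698 matched RefSeq (GRCm38.p6) by gene ID. A gene with several probe sets was represented by the one of highest mean level.

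Differences of log2 values were computed in Python 3.11.15 (pandas 2.3.3, numpy 2.4.6). Loess used statsmodels 0.14.6 with span 0.3, and plots matplotlib 3.10.9. Fold bounds take the floor in place of any level below it. The number of arrays limits the precision. Members, lists and rules were chosen with earlier results of these data known. The genes named are all members, Stat2 and Irf9; for each list, genes at least 2-fold apart between the ductal arrays or otherwise the highest and lowest, and the highest and lowest in beta against wild-type ductal cells; and the nearest patterns to Gbp2b, Oas1a and Ifit3. Other genes were named after their values were seen. The calling of differences was tried on simulated data with 4-fold changes planted in genes well above the floor. No changes near the floor or near 2-fold were planted, so such calls are not covered. Alternatives were other floors, folds, scalings and averaging the probe sets of each gene.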

Additional observations from a re-analysis of the deposited data

How the results depend on the processing

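Results are called by their side of the 2-fold rule, since 1 array per group gives no spread. No paired analysis was possible because each group has 1 array. Over 9 alternatives, 174 of 189 differences of single interferon-induced genes stayed called or stayed uncalled. Of the rest, 14 lost a call and 1 gained one, and 0 changed sign with a call. The 174 include differences that were never called. Each of these genes has 1 probe set, so averaging probe sets could not change its difference. Dropping the floor or lowering the fold could not remove a call. Of 108 counts, 79 stayed within 1.5 times. Gbp2b in deleted against wild-type ductal cells kept its call under all 9. Oas1a lost it with levels raised to the floor, with the floor at the 75th percentile and at 4-fold. Then 1 interferon-induced gene was lower in deleted cells, and 0 were higher in beta than in deleted cells, as also with the loess trend removed. With arrays centred, Ifit3 was at 0.97 and 0 interferon-induced genes were called higher in deleted cells, and 0 other pathway genes higher in beta than in wild-type cells.

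At 1.5-fold, 2 interferon-induced genes were higher in deleted cells and 4 other pathway genes lower. Of all 10035 genes, 282 were higher and 728 lower at that fold. In beta cells 4 and 5 others were higher than in wild-type and deleted cells, where 1558 of 11139 and 1439 of 11095 genes were. At 4-fold, 0 interferon-induced genes were higher and 1 lower in deleted cells, with 0 other genes in either direction. Of all 10035 genes, 41 were higher and 15 lower at 4-fold. Also at 4-fold, 3 interferon-induced and 17 other genes were lower and 0 others higher in beta than in wild-type cells. Of all 11139 genes, 1151 were lower and 102 higher. In beta against deleted cells 21 others were lower at 4-fold, where 915 of all 11095 genes were. At 2-fold 36 of 73 others were lower in that comparison, beside 23.0% of all genes. With quantile normalization 0 others were lower in deleted cells, and 6 and 5 were higher in beta than in wild-type and deleted cells. Over all genes these counts were 93 of 10052, 1189 of 11224 and 1048 of 11176. With the loess trend removed the counts of others were 0, 7 and 6, and 24 were lower in beta than in wild-type cells. Over all genes they were 164 of 10035, 902 of 11139, 714 of 11095 and 1784 of 11139. With no floor 2 and 1 others were higher in beta than in wild-type and deleted cells, where 1478 and 1207 of all 19938 genes were. The cause of these moves was not tested, beyond the thresholds' own effect. A level below the floor is only a bound.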

Other observations

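Single values recurred across probe sets within an array. In beta cells 29.4% of probe sets shared their deposited value with another probe set of that array, in deleted ductal cells 50.1% and in wild-type ductal cells 48.5%, with up to 274, 267 and 234 probe sets at 1 value. The Ifit2 value in deleted ductal cells was shared with 106 other probe sets, that of Gbp2b with 5 and that of Gbp3 with 2, while all 7 interferon-induced genes had values of their own in beta cells and in wild-type ductal cells.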
